A study of Homo sapiens with 4 samples.

Results

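Sphingolipid genes were examined in the human gastric cancer line SNU638 after knockdown of ACTL6A, an actin-related subunit of chromatin remodelling complexes. SGPL1 was chosen from the same contrast that is described here, by its difference between knockdown and control, and the other genes were selected by their role in sphingolipid metabolism with results of that contrast known. Of 35 genes listed, 32 had at least 1 probe set annotated with that gene alone, 77 probe sets in all, among 19775 genes and 54613 probe sets on the array. Because the contrast chose SGPL1, its difference is given as a description with no test.

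The study profiled total RNA on 4 single-colour Affymetrix arrays, 2 from cells carrying a scrambled shRNA (scramble) and 2 from cells carrying an shRNA against ACTL6A (sh-ACTL6A). Both groups were SNU638 cells, and the knockdown vector was lentiviral pLKO.1 followed by several days of puromycin selection. Whether the arrays of each group stem from different cultures is not stated, so the p-values rest on a spread that could be technical. In sh-ACTL6A that spread could also include a difference between shRNA hairpins. In such bulk RNA, fewer cells with a transcript and less of it per cell cannot be told apart. The methods name the hairpins shACTL6A-1, shACTL6A-2 and shACTL6A, but which of them was used for which array is not stated.

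Sphingolipid synthesis starts in the endoplasmic reticulum, where serine palmitoyltransferase joins serine and a fatty acyl-CoA, and reduction, acylation and desaturation then give ceramide. Ceramide is turned into sphingomyelin or glycosphingolipids, or is broken down to sphingosine, which can be phosphorylated to sphingosine-1-phosphate (S1P). S1P is either dephosphorylated and reused, bound by its receptors outside the cell, or cleaved by the lyase SGPL1, the only exit from the pathway.

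On arrays from this culture, 5 of 6 epithelial markers lay above the signal threshold, with EPCAM, an epithelial adhesion molecule, between 13.52 and 13.67 and CLDN4 below it. The threshold was a mean log2 signal of 5.63, the median of all non-control probe sets, and is not a detection call. None of 3 leukocyte markers and 3 of 6 fibroblast and endothelial markers passed it, the brightest of them COL1A1, at 8.28 to 8.66. ACTL6A, the targeted gene, read 11.92 and 11.82 in scramble and 10.16 and 10.32 in sh-ACTL6A and fell by 1.63 in log2 units (SE 0.14, limma adjusted p = 0.0408). It was the only gene of 12286 tested to pass an adjusted p of 0.05, which is 0.00814% of them. This call lay on either side of the threshold among the alternatives run, with limma adjusted p from 3.02e-06 without sh-ACTL6A replicate 2 to 0.9996 without scramble replicate 1. The signal excess of the 3′ over the 5′ end of ACTB, a measure of RNA quality, was 1.63 and 1.21 on replicate 1 of scramble and sh-ACTL6A and 0.78 on replicate 2 of each.

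SGPL1 cleaves S1P into hexadecenal and phosphoethanolamine. By the brightest probe set of each gene, it had the largest difference of the 27 members that passed the threshold. Its brightest probe set read 10.85 and 10.78 in scramble and 11.88 and 11.75 in sh-ACTL6A. Both sh-ACTL6A arrays were above both scramble arrays, and the group means were 1.0 apart in log2 units (SE 0.13), a fold of 2.00. This placed SGPL1 49th of the 49 tested genes that were higher by at least 1.

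The further SGPL1 probe sets gave smaller differences. The second probe set read 9.73 and 9.51 in scramble against 10.77 and 9.96 in sh-ACTL6A, a difference of 0.74 (SE 0.26) in which sh-ACTL6A replicate 1 stood above replicate 2. The third and dimmest read 6.15 and 6.93 against 6.67 and 6.80, so that the groups overlapped at a difference of 0.19 (SE 0.38). With all probe sets of each gene averaged, SGPL1 differed by 0.64 and was not the highest member. SPTSSA then differed by 0.94 and ORMDL3 by 0.99, the latter with a probe set below the threshold included. The SGPL1 gene lies at chr10:70815948-70881184 (GRCh38.p14, the build of the gene table and not of the array).

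**Figure D1:**
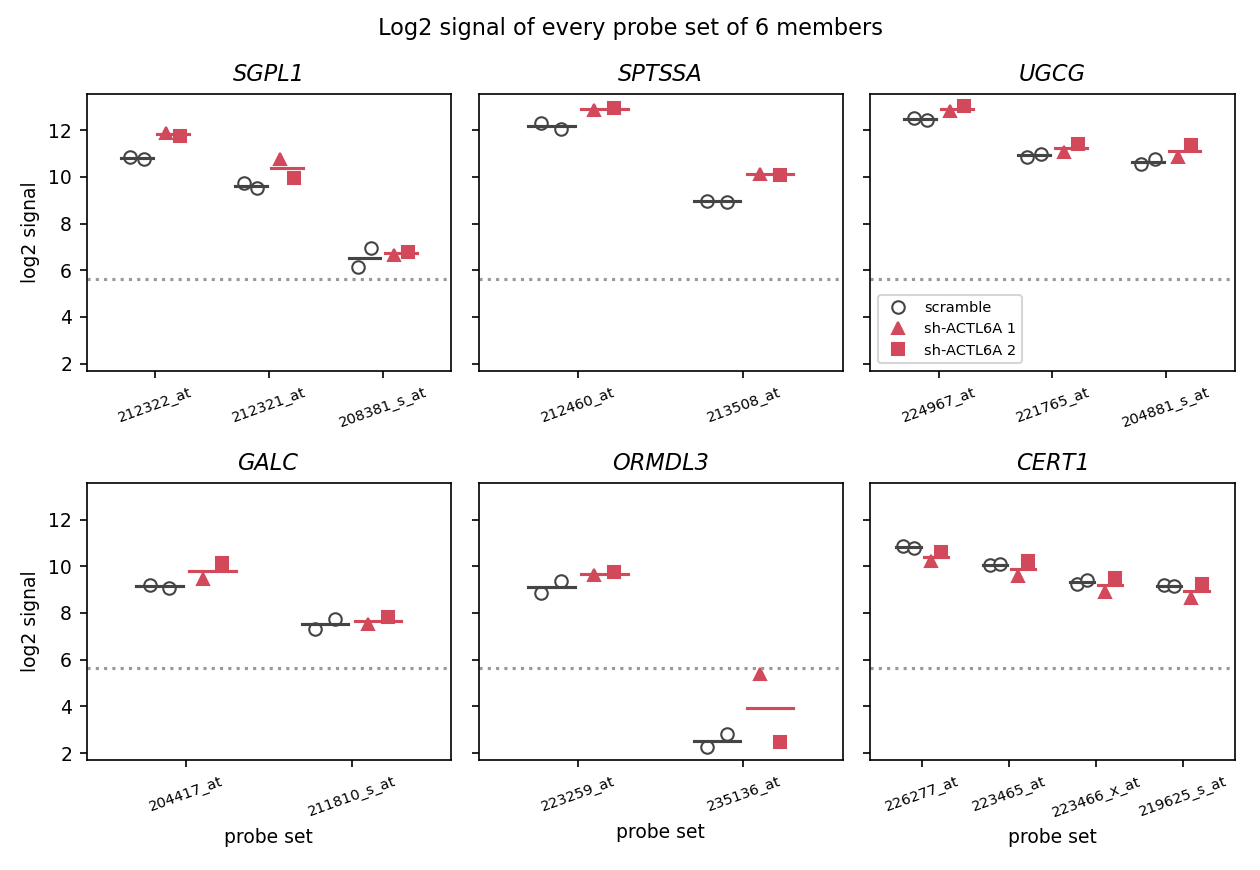
Log2 signal (vertical axis) by probe set (horizontal axis) for SGPL1, SPTSSA, UGCG, GALC, ORMDL3 and CERT1, with open circles for scramble arrays, triangles for sh-ACTL6A replicate 1, squares for sh-ACTL6A replicate 2, short lines for group means (n = 2) and the signal threshold of 5.63 dotted. Both SPTSSA and all 3 UGCG probe sets read higher on both sh-ACTL6A arrays, while the dimmest SGPL1 probe set overlapped.

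The start regions of SGPL1 and SPTSSA are shown, the pair with the largest differences by brightest probe set. They run from 250 bases before to 50 bases after the annotated start (RefSeq, GRCh38.p14), 5′ to 3′ on the strand of the gene. SGPL1 lies on the plus strand at chr10:70815698-70815997 and SPTSSA on the minus strand at chr14:34462191-34462490. Capitals mark each GC box, GGGCGG on either strand.

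SGPL1: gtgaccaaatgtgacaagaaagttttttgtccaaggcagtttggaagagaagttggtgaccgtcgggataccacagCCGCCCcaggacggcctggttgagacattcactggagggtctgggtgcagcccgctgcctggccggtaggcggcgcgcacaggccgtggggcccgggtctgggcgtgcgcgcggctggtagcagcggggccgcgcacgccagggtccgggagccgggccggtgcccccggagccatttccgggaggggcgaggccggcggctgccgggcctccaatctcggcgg
SPTSSA: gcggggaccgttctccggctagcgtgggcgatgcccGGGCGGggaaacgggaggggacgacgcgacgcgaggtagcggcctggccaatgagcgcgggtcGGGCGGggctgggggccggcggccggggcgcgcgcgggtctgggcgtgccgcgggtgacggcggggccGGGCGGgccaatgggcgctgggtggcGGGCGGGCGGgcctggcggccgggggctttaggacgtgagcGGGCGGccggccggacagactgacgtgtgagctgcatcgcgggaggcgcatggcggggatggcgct

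Both windows were rich in G and C, at 70% for SGPL1 and 79.7% for SPTSSA, with a single GC box in the former and 6 matches, of which a pair overlap, in the latter. A GC box was found in 44.6% of 27305 promoters of this length and in 19 of the 23 tested members that had one in the table. The 23 had passed the signal threshold, while the 27305 include promoters of genes that were not tested. Shares of the 2 sets are therefore not like for like, for this motif and those below. NRF2, a transcription factor that the study examined together with ACTL6A, binds antioxidant response elements, whose core TGACNNNGC was searched on both strands. It was in neither window, in 13.6% of all promoters and in 6 of the 23, namely those of ORMDL2, DEGS1, SGMS2, SPHK1, ACER3 and GALC. The AP-1 motif TGANTCA, which can overlap this core, was also in neither, in 7.76% of all promoters and in 3 of the 23.

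Of the 27 members that passed the threshold, 14 lay above 0 and 13 below, and their median difference was 0.05 on the log2 scale, against 0.01 over all genes tested. None passed an adjusted p of 0.05, and the other 26 members had limma adjusted p between 0.392 and 0.998. At an unadjusted p under 0.05, 5 were higher and 1 lower, where the background over all genes tested was 3.21% higher and 2.3% lower. Without SGPL1 these were 4 higher and 1 lower of 26. A total of 4 members, SGPL1, SPTSSA, GALC and ORMDL3, differed by at least 0.5, 3 of them other than SGPL1, as did 8.07% of all genes tested. Both sh-ACTL6A arrays lay above both scramble arrays for 12 members and below them for 9, against 19.3% and 15.4% of all genes tested. These counts come from the contrast that chose SGPL1. With 2 arrays against 2, an exact 2-sided permutation test of a single gene cannot go below p = 0.333.

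**Figure D2:**
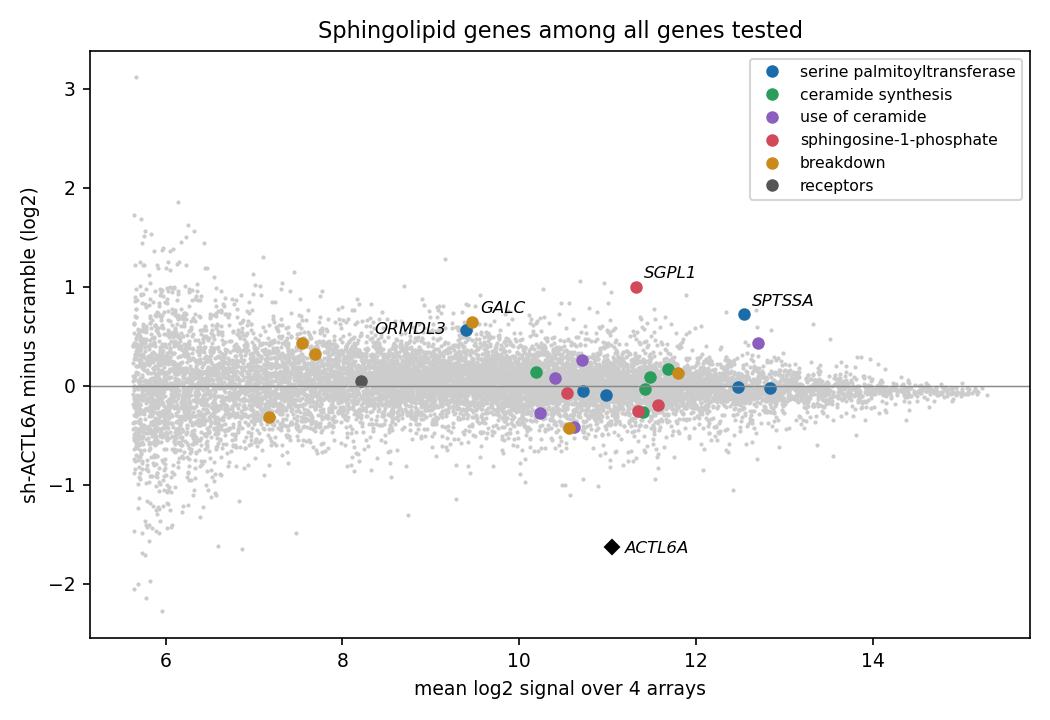
Difference between groups (sh-ACTL6A minus scramble, log2, vertical axis) by mean log2 signal of the 4 arrays (horizontal axis), with 1 grey point for each of 12286 genes and the 27 members coloured by step. SGPL1 at 1.0 and SPTSSA at 0.72 are the highest members, no member is lower than -0.42, and ACTL6A is at -1.63.

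Serine palmitoyltransferase carries out the committed step and consists of a SPTLC1 subunit, a SPTLC2 or SPTLC3 subunit and a small activating subunit, SPTSSA or SPTSSB, while ORMDL proteins hold it back when ceramide is plentiful. Its small subunit and an inhibitor differed most, and the large subunits differed little. SPTSSA read 12.31 and 12.06 in scramble and 12.84 and 12.96 in sh-ACTL6A. The groups did not overlap, and the difference was 0.72 (SE 0.12, 95% confidence interval 0.43 to 1.01, adjusted p = 0.392), a fold of 1.65. Its further probe set read 8.97 and 8.92 in scramble and 10.13 and 10.08 in sh-ACTL6A, 1.16 apart (SE 0.14), so both probe sets were higher on both arrays.

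ORMDL3, an inhibitory subunit, read 8.87 and 9.36 in scramble and 9.60 and 9.75 in sh-ACTL6A. The groups did not overlap at a difference of 0.56 (SE 0.21), yet the scramble arrays were 0.50 apart, and a dim further probe set overlapped. The difference was 0.31 without scramble replicate 1 and 0.81 without scramble replicate 2. Its relatives ORMDL1 and ORMDL2 differed by -0.01 (SE 0.15) and -0.09 (SE 0.13).

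SPTLC1, the large subunit common to all forms of the enzyme, differed by -0.03 (SE 0.11, 95% confidence interval -0.29 to 0.23). SPTLC2 differed by -0.05 (SE 0.13), while its 3 further probe sets above the threshold gave 0.11, 0.09 and 0.46. SPTSSB, the alternative small subunit, lay below the threshold with signals from 3.05 to 5.64, and SPTLC3 was not analysed here. Over the 6 tested genes the median was -0.02, with medians of 0.12 and -0.04 on sh-ACTL6A replicates 1 and 2 against the scramble mean. It was 0.11 with all probe sets averaged and 0.03 without scramble replicate 1.

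**Figure D3:**
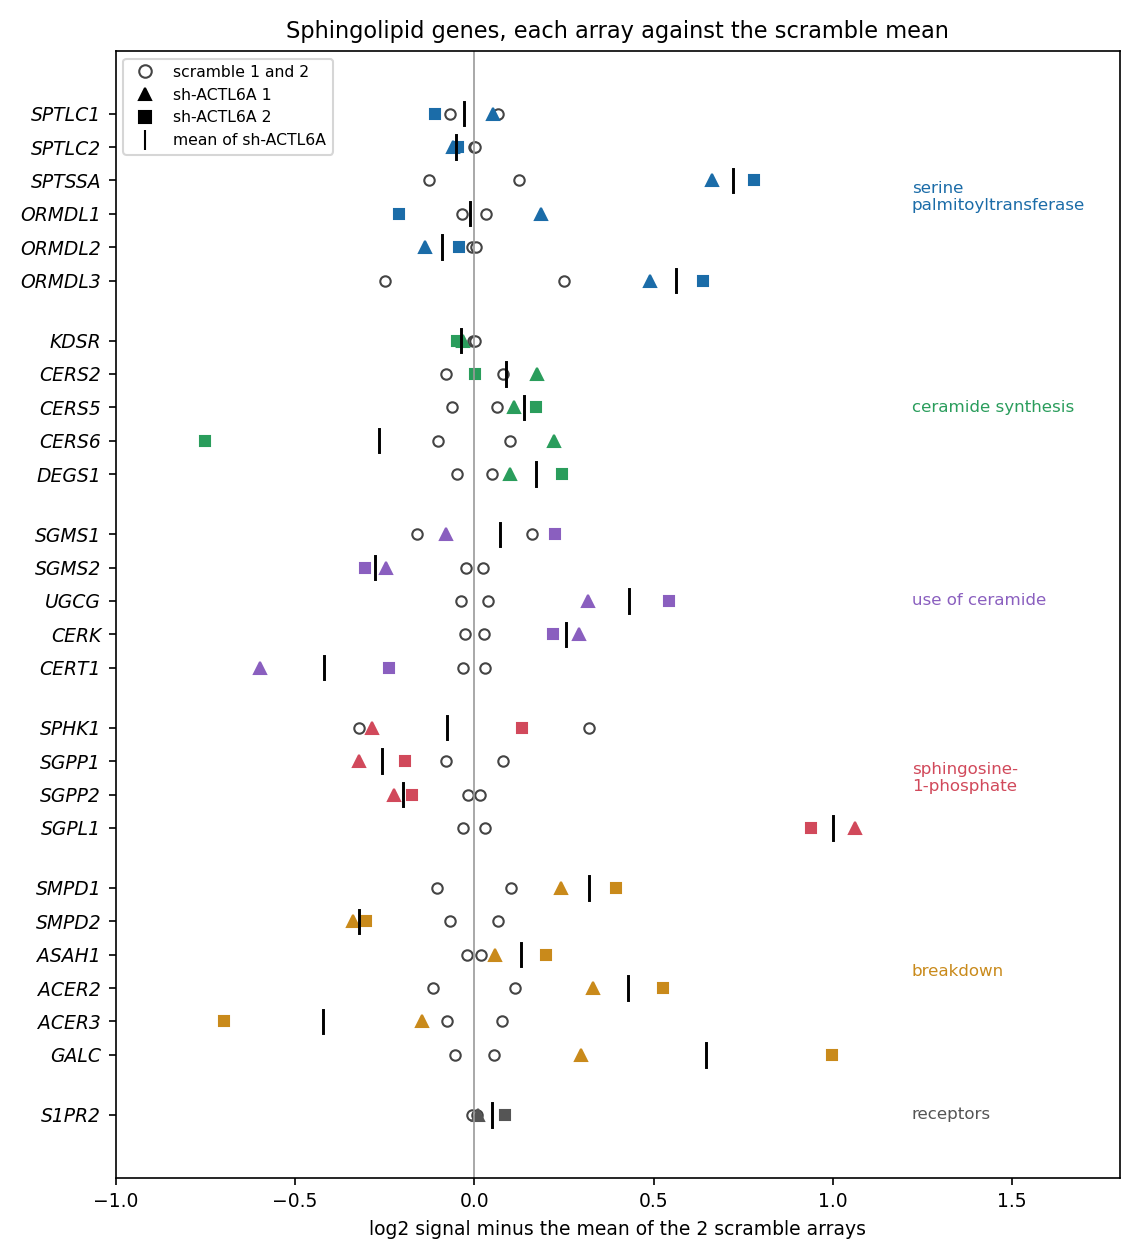
Log2 signal of each array minus the mean of the 2 scramble arrays (horizontal axis) for the 27 tested members (vertical axis), grouped by step, with open circles for scramble arrays, triangles and squares for sh-ACTL6A replicates 1 and 2 and vertical bars for the sh-ACTL6A mean. Both sh-ACTL6A arrays lie above both scramble arrays for 12 members, SGPL1 and SPTSSA among them, and below them for 9. The shares over all genes tested were 19.3% and 15.4%. For CERS6 the sh-ACTL6A arrays lie on opposite sides of scramble.

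In ceramide synthesis, KDSR reduces ketosphinganine, the ceramide synthases CERS2, CERS4, CERS5 and CERS6 attach fatty acids of differing length, and DEGS1 and DEGS2 desaturate the product. The 5 genes tested here differed by less than 0.3 on the log2 scale in either direction. CERS6, which prefers the C16 acyl chain, read 11.43 and 11.63 in scramble and 11.75 and 10.78 in sh-ACTL6A. Replicate 1 was thus above both scramble arrays and replicate 2 below them, and the difference was -0.26 (SE 0.28). It was 0.22 without sh-ACTL6A replicate 2 and -0.75 without replicate 1. The same array was low for a further probe set, at 10.57 against 11.35 on sh-ACTL6A replicate 1, but not for the other two, which differed by 0.17 and 0.11.

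DEGS1, the main dihydroceramide desaturase, read 11.55 and 11.65 in scramble and 11.70 and 11.85 in sh-ACTL6A. The groups did not overlap at a difference of 0.17 (SE 0.13), and its further probe set overlapped at 0.02. CERS5 differed by 0.14 (SE 0.15), CERS2, the synthase of very long chains, by 0.09 (SE 0.14) and KDSR by -0.04 (SE 0.12). DEGS2 lay between 1.99 and 2.75 and CERS4 read 1.48 and 1.75 in scramble against 3.01 and 3.70 in sh-ACTL6A, both below the threshold. The median of the 5 tested genes was 0.09, and 0.0033 without sh-ACTL6A replicate 1.

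Among the genes that use ceramide, UGCG was higher on both sh-ACTL6A arrays by all its probe sets, while the ceramide carrier CERT1 and the sphingomyelin synthase SGMS2 were lower on both by their brightest probe set but not by every one. UGCG, which forms glucosylceramide and so opens the glycosphingolipid branch, read 12.52 and 12.45 in scramble and 12.80 and 13.03 in sh-ACTL6A. The difference was 0.43 (SE 0.12, 95% confidence interval 0.16 to 0.70, adjusted p = 0.653), without overlap. Its further probe sets differed by 0.32 and 0.46, likewise without overlap.

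CERT1, which carries ceramide from the endoplasmic reticulum to the Golgi for sphingomyelin synthesis, read 10.86 and 10.80 in scramble and 10.24 and 10.60 in sh-ACTL6A. The groups did not overlap at -0.42 (SE 0.16), with replicate 1 the lower array. Its 3 further probe sets differed by -0.17, -0.12 and -0.25, each with overlap, since replicate 1 read below both scramble arrays and replicate 2 above both on all of them.

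SGMS2 differed by -0.28 (SE 0.14), and its further probe sets by -0.25 with overlap and -0.31 without. SGMS1, the Golgi sphingomyelin synthase, differed by 0.07 (SE 0.18) with overlap, and CERK, which phosphorylates ceramide, by 0.26 (SE 0.14) without overlap. The 5 genes, of which 3 lay above 0 and 2 below, had a median of 0.07. This was -0.08 on sh-ACTL6A replicate 1 and 0.22 on replicate 2, and without scramble replicates 1 and 2 it was 0.23 and -0.09.

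Around S1P, the lyase SGPL1 was higher while both S1P phosphatases were lower on both sh-ACTL6A arrays, each by its brightest probe set. SGPP1, which returns S1P to sphingosine, read 11.55 and 11.40 in scramble and 11.15 and 11.28 in sh-ACTL6A. The difference was -0.26 (SE 0.13, 95% confidence interval -0.57 to 0.06), and its further probe set gave -0.30, both without overlap. SGPP2, a phosphatase of the same family, differed by -0.20 (SE 0.12) without overlap, and its further probe sets differed by -0.26 and, for the dimmest, by 0.45 with overlap. With all probe sets averaged SGPP2 differed by -0.005.

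SPHK1, the kinase that makes S1P, read 10.26 and 10.90 in scramble and 10.29 and 10.71 in sh-ACTL6A. Its arrays spread widely within each group, and the difference was -0.08 (SE 0.24, 95% confidence interval -0.63 to 0.48). SPHK2, the other kinase, was not analysed here. The median of the 4 genes, SGPL1 included, was -0.14, at -0.25 and -0.02 on sh-ACTL6A replicates 1 and 2, and 0.03 without scramble replicate 2.

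**Figure D4:**
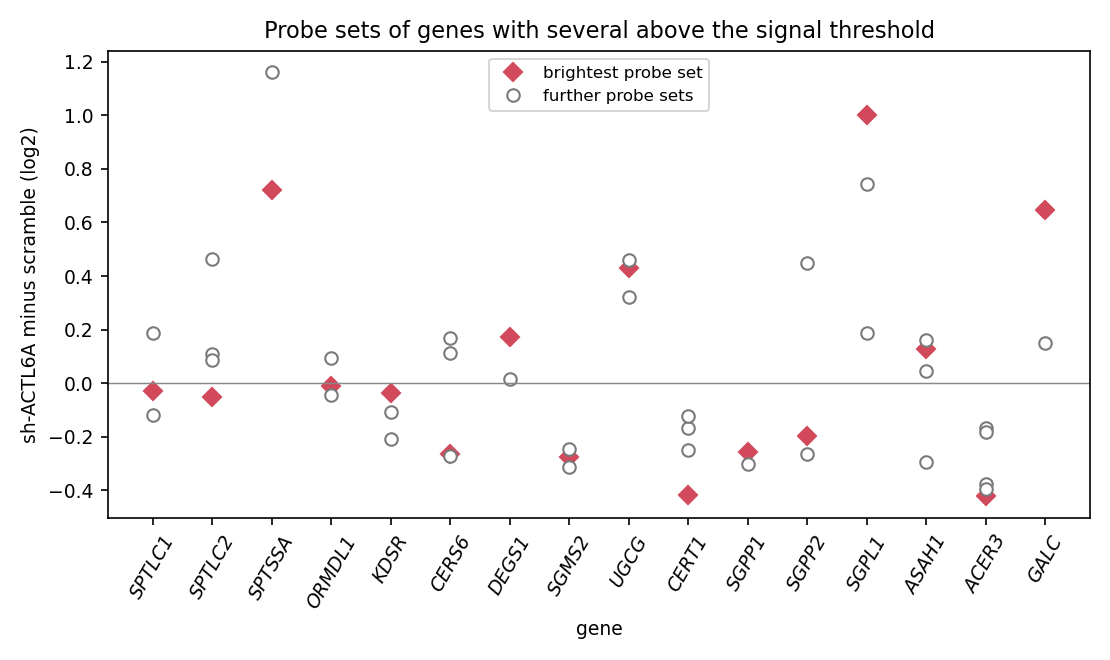
Difference between groups (sh-ACTL6A minus scramble, log2, vertical axis) of each probe set above the signal threshold, for the 16 members with several (horizontal axis), with diamonds for the brightest probe set and open circles for the others. All probe sets of SPTSSA and UGCG are above 0 and all those of SGMS2, CERT1, SGPP1 and ACER3 below, whereas those of CERS6, SGPP2 and ASAH1 lie on both sides.

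In breakdown, sphingomyelinases release ceramide from sphingomyelin, GALC removes galactose from galactosylceramide in the lysosome, and ceramidases split ceramide into sphingosine and a fatty acid. GALC read 9.20 and 9.09 in scramble and 9.44 and 10.14 in sh-ACTL6A. The groups did not overlap, but replicate 2 was 0.70 above replicate 1, and the difference was 0.65 (SE 0.24, 95% confidence interval 0.09 to 1.20, adjusted p = 0.851). It was 0.30 without sh-ACTL6A replicate 2 and 1.0 without replicate 1, and the further probe set differed by 0.15 with overlap.

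The ceramidases went in both directions. ACER2, a Golgi alkaline ceramidase, read 7.22 and 7.45 in scramble and 7.66 and 7.86 in sh-ACTL6A, a difference of 0.43 (SE 0.23) without overlap. ACER3, an alkaline ceramidase of the endoplasmic reticulum and Golgi, read 10.86 and 10.70 in scramble and 10.63 and 10.08 in sh-ACTL6A, differing by -0.42 (SE 0.20) without overlap. The 4 further ACER3 probe sets above the threshold differed by -0.17 to -0.40.

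The ACER3 difference was -0.15 without sh-ACTL6A replicate 2 and -0.70 without replicate 1. ASAH1, the lysosomal acid ceramidase, differed by 0.13 (SE 0.12), and by -0.21 with all probe sets averaged. Its 5 probe sets lay on both sides of 0. The dimmest, below the threshold at a mean log2 signal of 3.52, differed by -1.12 and is part of that average.

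SMPD1, the acid sphingomyelinase, differed by 0.32 (SE 0.22) and SMPD2, a neutral sphingomyelinase, by -0.32 (SE 0.25), both without overlap and at a mean log2 signal under 8. SMPD4 was represented only by a probe set that also names its relative SMPD4BP. Of the 6 tested genes 4 lay above 0, with a median of 0.22, at 0.15 and 0.30 on sh-ACTL6A replicates 1 and 2. This median was 0.13 with the stricter filter on dim genes and 0.05 with all probe sets averaged.

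The S1P receptors are G protein-coupled receptors at the cell surface. Only S1PR2 passed the threshold, and it read 8.19 and 8.20 in scramble and 8.20 and 8.28 in sh-ACTL6A. The difference was 0.05 (SE 0.19, 95% confidence interval -0.39 to 0.49), and it was -0.0015 after quantile normalisation. S1PR1 read between 1.31 and 3.77, and S1PR3 between 2.96 and 5.68 over its pair of probe sets, with overlapping groups throughout.

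Probe sets of a gene served as a check of its brightest one within the same arrays. Of 34 further probe sets above the threshold, 25 had the sign of the brightest probe set of their gene. Signs opposed each other for genes with small differences, such as SPTLC1, SPTLC2 and ORMDL1, and for the dimmest SGPP2 probe set, a pair of CERS6 probe sets and 1 of ASAH1.

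To set these genes beside the rest of the pathway, 45 further sphingolipid genes were listed, of which 36 had a probe set of their own and 26 passed the threshold. None passed an adjusted p of 0.05, 11 lay above 0 and 15 below, and their median was -0.01. Both sh-ACTL6A arrays lay above scramble for 4 and below it for 8, where the shares over all genes tested were 19.3% and 15.4%. At an unadjusted limma p under 0.05, 0 were higher and 4 lower, beside 3.21% and 2.3% of all genes tested.

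The 4 with the largest differences were all lower, and none of their groups overlapped. B4GALT6, which adds galactose to glucosylceramide to form lactosylceramide, read 11.40 on both scramble arrays and 10.59 and 10.70 in sh-ACTL6A, a difference of -0.75 (SE 0.13, adjusted p = 0.392). UGT8, which makes the galactosylceramide that GALC breaks down, read 12.03 and 11.88 in scramble, 11.62 and 11.04 in sh-ACTL6A, and so differed by -0.62 (SE 0.19, adjusted p = 0.767). PLEKHA8, a glucosylceramide transfer protein, differed by -0.39 (SE 0.16) and SMPDL3B, a sphingomyelinase-like phosphodiesterase, by -0.35 (SE 0.22).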

How the data were processed

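The table holds 1 log2 signal per probe set and array, as the authors deposited it after MAS5 (named in the submitters' processing notes without a version). Every array had been scaled alone, to a linear trimmed mean of 500 (2% from each end), and MAS5 signals of dim probe sets scatter widely. No further scaling was applied. Genes were named through the platform's probe table, 1 symbol per probe set. Each gene was represented by its probe set with the highest mean signal and tested if that reached the 50th percentile of non-control probe sets. Differences are sh-ACTL6A minus scramble, from linear models fitted in R 4.3.3 with limma 3.58.1 and moderated along the signal trend, with 2-sided p-values, adjusted after Benjamini and Hochberg over 12286 genes. SEs of further probe sets came from the same model fitted over all 54613 non-control probe sets. They are therefore not strictly like for like with those of the brightest probe sets. With 2 arrays per group their number limits the precision. The fit was tested on simulated data. The members, gene lists and steps were chosen with earlier results of these data known. Named were all members, with each array's value for SGPL1, for the 2 members per step with the largest absolute difference and for those of at least 0.5, and 4 genes of the wider list. Results were recomputed with median centring, quantile normalisation, no filter, a 75th percentile filter, all probe sets averaged, an offset of 16 on the linear signal, no trend, the replicate block, the methods' t-test, every probe set tested and each array left out.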

Additional observations from a re-analysis of the deposited data

How the results depend on the processing

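No member was called over all genes tested under any alternative with all 4 arrays. Left-out arrays gave between 0 and 6 members past the threshold, SGPL1, which this contrast chose and which is no test, included. Without sh-ACTL6A replicate 1 the other 5 were SPTSSA, UGCG and GALC (higher) and CERS6 and ACER3 (lower), where 401 of 12286 genes, 3.26%, were called. Without replicate 2 the other two were SPTSSA (higher) and CERT1 (lower), where 335 genes, 2.73%, were called. Such fits leave 1 sh-ACTL6A array and assume that it varies like the scramble pair. Over all genes, 0 were called with quantile normalisation, no filter, no intensity trend, the methods' t-test or every probe set tested, and between 0 and 401 with an array left out. The methods' t-test gave 672 of 12286 genes and 8 of the 27 members an unadjusted p under 0.05. The 8 include SGPL1, which this contrast chose, and SPTLC2 and KDSR, which differed by only -0.05 and -0.04. With the replicate block 2 genes were called, none of them a member. Nothing in the labels says that equal numbers share a culture or batch, and the deviations of same-numbered arrays correlated at 0.056 over genes. RNA quality, however, differed by number in either group. Scramble replicate 1 had a 3′ excess of 1.63 for ACTB and 0.29 for GAPDH, against 0.78 and 0.10 for scramble replicate 2. For sh-ACTL6A the values were 1.21 and 0.22 against 0.78 and 0.07. Whether a shared batch underlies this was not tested. ACTL6A differed by -1.64 with quantile normalisation and by -1.63 with no filter, no intensity trend, the methods' t-test or every probe set tested, in each case without a call, and by -1.71 to -1.55 with an array left out. With all probe sets averaged, SGPL1 differed by 0.64, and the medians were 0.11 for serine palmitoyltransferase, 0.050 for breakdown and 0.17 for receptors. The breakdown median was 0.13 with the stricter filter, and the receptor value was -0.0015 after quantile normalisation. With an array left out, medians ranged from -0.048 to 0.12 for serine palmitoyltransferase, 0.0033 to 0.17 for ceramide synthesis, -0.089 to 0.23 for use of ceramide and -0.25 to 0.032 for S1P. The causes were not tested. Of the 14 members differing by at least 0.25, only CERS6 changed sign under any alternative, without sh-ACTL6A replicate 2. MAS5 signals of dim probe sets limit what SPTSSB, CERS4, DEGS2, S1PR1 and S1PR3 can show.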

Other observations

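A pair of probe sets names a member together with another gene and was left out of the comparisons. The probe set of SMPD4BP and SMPD4, the latter a neutral sphingomyelinase, read 10.50 and 10.94 in scramble and 10.70 and 10.83 in sh-ACTL6A, with overlapping groups. The probe set of MRPL51, a mitochondrial ribosomal protein gene, and SPTLC1 read 10.01 and 10.15 in scramble and 10.05 and 9.93 in sh-ACTL6A, also with overlap.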
